A study of Mus musculus with 2 samples.

Results

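The genes described here are 10 genes of the muscle calcium store: Ryr1, Ryr3, Atp2a1, Atp2a2, Atp2a3, Casq1, Casq2, Cacna1s, Stim1 and Jph2. They were chosen by symbol, and all 10 were found among the 21829 gene symbols measured. The data were 2 RNA sequencing libraries of C2C12, an immortalized mouse myoblast line. The WT library came from unedited C2C12 cells. The KO library came from Gne KO C2C12 cells, in which CRISPR–Cas9 had introduced an indel in exon 2 of Gne, the gene of the enzyme that starts sialic acid synthesis. Both lines were grown in DMEM with 10% FBS and gentamicin, without any differentiation step in the sample description. The methods describe Gne KO cells as expanded from isolated single clones, so that a difference between the lines cannot be told apart from the history of a clone. With 1 library per line, no difference has a replicate check and no test was made. Gne itself stood at 6.67 FPKM in WT and 7.34 FPKM in KO, and because a frameshift need not lower the RNA, its amount does not check the label. The library is therefore called the KO-labelled library.

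Skeletal muscle stores calcium in the sarcoplasmic reticulum, the specialized endoplasmic reticulum of the fiber. SERCA pumps (Atp2a genes) load the store, calsequestrins (Casq genes) buffer calcium inside it, and ryanodine receptors (Ryr genes) release it. In mature fibers release follows the voltage sensor Cacna1s, which faces Ryr1 at junctions held together by junctophilins, and Stim1 senses an emptied store and opens Orai channels in the plasma membrane. Myoblasts lack most of the specialized reticulum, which is built when they fuse into myotubes.

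In both libraries 3 of the store genes were above 1 FPKM and 7 were below it. Atp2a2, Jph2 and Stim1 were measured at 6.65 FPKM or more in each library. The other 7 genes were at 0.508 FPKM or less in each library, and Cacna1s was listed at 0 in both. Atp2a2, Jph2 and Stim1 were all slightly higher in the KO-labelled library, with log2 fold changes of 0.14 to 0.36. Of all genes averaging 1 FPKM or more, 50.7% had a higher value in that library. Among the low genes with a value above 0 in both, the largest ratio was that of Ryr3, 7.70-fold lower in the KO-labelled library. In bulk RNA, fewer cells of a type and less RNA per cell cannot be told apart.

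The DNA just upstream of the start sites is shown for Atp2a1, Casq1, Cacna1s and Jph2. Their windows hold the letters CAGCTG, a form of the E-box (CANNTG) that myogenic bHLH factors such as MyoD can bind. These 4 were chosen after the motif search. Start sites and sequences are from RefSeq on GRCm38.p6. Each line gives the 250 bases before an annotated transcript start (the first listed where there are several), 5′ to 3′ on the strand of the gene, with every E-box in capitals. That start need not be the outer end of the gene. The windows of Atp2a1, Cacna1s and Jph2 partly overlap the annotated gene, and the CAGCTG of Jph2 lies in the overlap. Of the windows not shown, that of Ryr1 partly overlaps its gene and that of Stim1 lies wholly inside it.
Atp2a1 (chr7:126463074-126463323, minus strand): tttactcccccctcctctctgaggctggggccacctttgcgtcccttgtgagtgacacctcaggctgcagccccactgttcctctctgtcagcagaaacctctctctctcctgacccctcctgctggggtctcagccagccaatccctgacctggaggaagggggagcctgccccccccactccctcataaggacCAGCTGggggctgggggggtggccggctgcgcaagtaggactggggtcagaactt
Casq1 (chr1:172219896-172220145, minus strand): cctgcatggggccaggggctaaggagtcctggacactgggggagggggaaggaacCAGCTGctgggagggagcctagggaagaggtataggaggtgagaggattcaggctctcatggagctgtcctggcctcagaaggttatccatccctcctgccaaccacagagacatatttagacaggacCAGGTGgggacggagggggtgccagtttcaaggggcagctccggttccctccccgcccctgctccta
Cacna1s (chr1:136052561-136052810, plus strand): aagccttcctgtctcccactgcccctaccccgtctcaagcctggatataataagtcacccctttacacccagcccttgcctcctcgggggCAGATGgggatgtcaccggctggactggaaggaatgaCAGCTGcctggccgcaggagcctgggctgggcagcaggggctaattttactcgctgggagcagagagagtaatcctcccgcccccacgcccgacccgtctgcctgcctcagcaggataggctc
Jph2 (chr2:163397994-163398243, minus strand): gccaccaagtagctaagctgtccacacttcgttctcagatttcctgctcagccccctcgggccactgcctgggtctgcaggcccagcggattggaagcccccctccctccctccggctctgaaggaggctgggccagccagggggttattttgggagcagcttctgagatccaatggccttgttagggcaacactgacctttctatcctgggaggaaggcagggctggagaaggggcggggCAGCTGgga
Of the 8 members with an entry, 6 held a CANNTG in this window and 4 held CAGCTG. Among 27025 promoter windows of the same length, 66% held CANNTG and 12.8% held CAGCTG. Both motifs read the same on either strand, and each CAGCTG is also a CANNTG. A narrow frame of the MEF2 site, the letters CTA and TAG with 4 bases between them, was in 0 of the 8 windows and in 3.23% of all. Frames with other outer letters were not searched, so the 0 does not speak for every form of a MEF2 site. The Casq2 window holds the letters ttatttttag, which differ from the frame in the first letter only. Ryr1 and Atp2a3 held no E-box, and Casq2 and Stim1 held other forms of it. There was no entry for Ryr3 and Atp2a2. Of the 4 genes with CAGCTG, Jph2 was at 15.9 FPKM in WT and Atp2a1, Casq1 and Cacna1s were at 0.105, 0.079 and 0 FPKM. These matches describe the sequence and are not measured binding sites.

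The deposited values name no unit and are taken as FPKM, that is, fragments scaled to transcript length and to library size, so that levels can be set side by side between genes. TPM, another unit scaled to length, is not excluded, and the ratios between libraries and the fragment estimates do not depend on which of them it is. A low FPKM of a long transcript can still rest on many fragments. The number of fragments behind each value was therefore estimated from the steps between low values, which correspond to 1, 2 or 3 fragments. A fragment was worth 0.0359 FPKM on a transcript of 1 kilobase in WT and 0.0406 FPKM in the KO-labelled library, a ratio of 1.13. The intervals given with ratios are 95% intervals from these estimated fragments. They cover counting error between the 2 libraries only and say nothing about other cultures or clones.

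**Figure D1:**
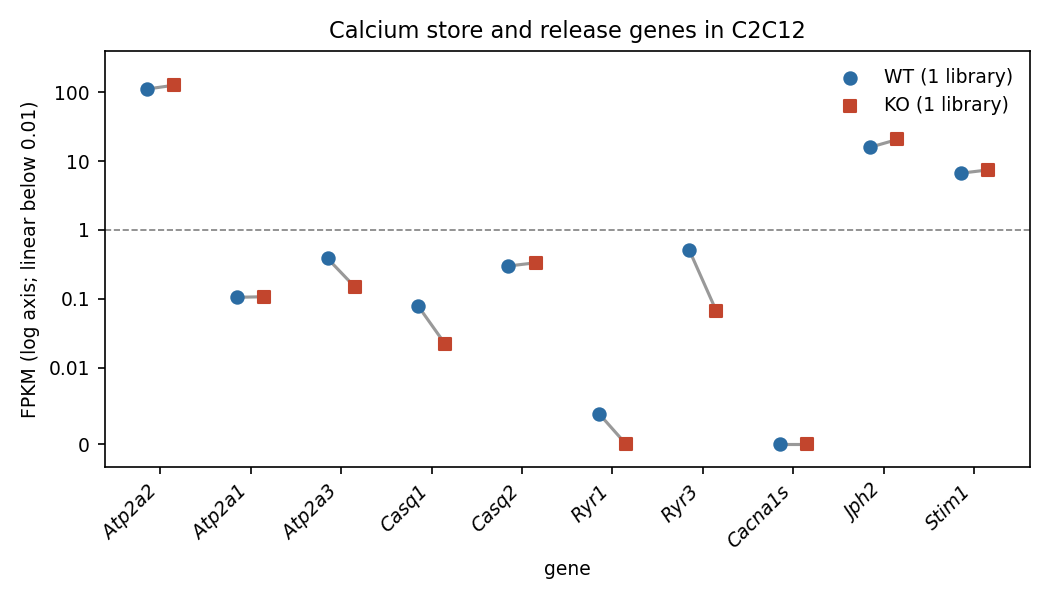
FPKM of each gene (log axis, linear below 0.01) in the WT library (circles) and the KO-labelled library (squares), 1 library each and hence without error bars; the dashed line marks 1 FPKM. Atp2a2, Jph2 and Stim1 lie above the line in both libraries, the other 7 genes lie below it, and Ryr3 shows the widest gap, 0.508 against 0.066 FPKM.

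Of the SERCA pumps, Atp2a2 carried nearly all of the RNA. Atp2a2 encodes SERCA2, whose SERCA2b form serves the endoplasmic reticulum of most cells. Atp2a2 was 111 FPKM in WT and 126 FPKM in the KO-labelled library (log2 fold change 0.18, with 1 added to each value), and the ratio was 1.14 with a counting interval of 1.11 to 1.16. The gene lies on chromosome 5 of GRCm38.p6, from 122453513 to 122502225. It ranked 771 of 21829 genes in WT and 690 in the KO-labelled library. Its level was 16.7 times that of Stim1 in WT and 17.0 times in the KO-labelled library. Atp2a1 encodes SERCA1, the pump of fast fibers. Atp2a1 was 0.105 FPKM in WT and 0.107 FPKM in the KO-labelled library, on about 12.1 and 10.9 fragments. Atp2a3 encodes SERCA3, a pump best known from blood and epithelial cells. Atp2a3, at 72961169 to 72993043 of chromosome 11, was 0.385 FPKM in WT and 0.149 FPKM in the KO-labelled library, a ratio of 0.387 with a counting interval of 0.212 to 0.694 on about 48.6 and 16.6 fragments. The summed level of the 3 pumps was 112 FPKM in WT and 126 FPKM in the KO-labelled library. Atp2a2 made up 99.6% and 99.8% of these sums, so that the lower Atp2a3 left the sum nearly untouched.

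Of the calsequestrins, Casq2 had the higher value in both libraries. Casq2 encodes the cardiac and slow-fiber isoform and Casq1 that of fast fibers. Casq2 was 0.299 FPKM in WT and 0.333 FPKM in the KO-labelled library, a ratio of 1.11 with a counting interval of 0.718 to 1.71. Casq1 was 0.079 FPKM in WT and 0.022 FPKM in the KO-labelled library. This corresponds to about 4.77 and 1.17 fragments and a ratio of 0.278 whose counting interval ran from 0.0048 to 2.02, so that no difference in Casq1 was detectable at this depth. Casq2 made up 79.1% of the calsequestrin sum in WT and 93.8% in the KO-labelled library, and the sums, 0.378 and 0.355 FPKM, were close to each other.

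**Figure D2:**
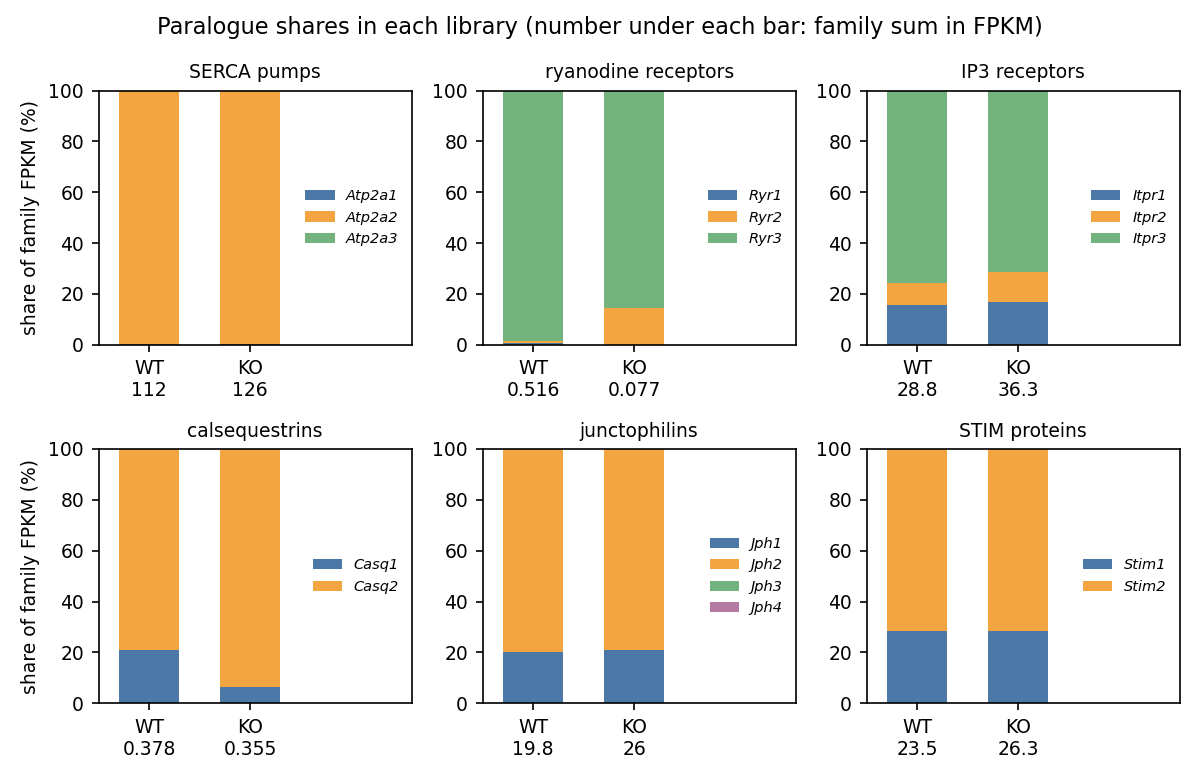
Share of each paralogue in the summed FPKM of its family (stacked bars, percent), with the family sum in FPKM under each bar, for 1 WT library and 1 KO-labelled library. Atp2a2 fills the SERCA bars at 99.6% and 99.8%, and the ryanodine receptor sum is 0.516 FPKM in WT and 0.077 FPKM in the KO-labelled library.

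The ryanodine receptors were scarce, and Ryr3 was the ryanodine receptor with the most RNA. Ryr3 is an isoform found in developing muscle and in brain, and Ryr1 is the release channel of mature skeletal fibers. Ryr3 was 0.508 FPKM in WT and 0.066 FPKM in the KO-labelled library. Because the annotated transcript spans 15458 bases, these values stood for about 219 and 25.1 fragments. The ratio was 0.13 with a counting interval of 0.0819 to 0.196, or 7.70-fold lower with an interval of 5.10 to 12.2. The 6 annotated coding transcripts of Ryr3 span 137 to 15473 bases, and a shorter one would give fewer fragments and a wider interval. On the log2(value + 1) scale the same difference was -0.50, because the added 1 is larger than both values, and with 0.1 added it was -1.87. Ryr1 was 0.004 FPKM in WT, about 1.71 fragments, and was listed at 0 in the KO-labelled library. Ryr2, the cardiac isoform and not a member of the list, was 0.004 and 0.011 FPKM. The summed ryanodine receptors went from 0.516 FPKM in WT to 0.077 FPKM in the KO-labelled library, 6.70-fold lower. Ryr3 made up 98.4% of the sum in WT and 85.7% in the KO-labelled library.

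Ryr3 lies on chromosome 2 of GRCm38.p6, from 112631354 to 113217405, and overlaps no other annotated gene. For the 40 expressed genes nearest to it (20 per side) the median log2 fold change was -0.065, with 1 over 2-fold higher and 0 over 2-fold lower. Ratios beyond 2-fold were also frequent among other genes with as few fragments. Of 1124 genes whose mean number of estimated fragments lay within 2-fold of that of Ryr3, 16.8% were more than 2-fold lower and 18.1% more than 2-fold higher, and 4.45% were at least as low as Ryr3. For Atp2a3, 26.4% of 841 genes with similar fragment numbers were more than 2-fold lower, and 22.5% were at least as low as Atp2a3.

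**Figure D3:**
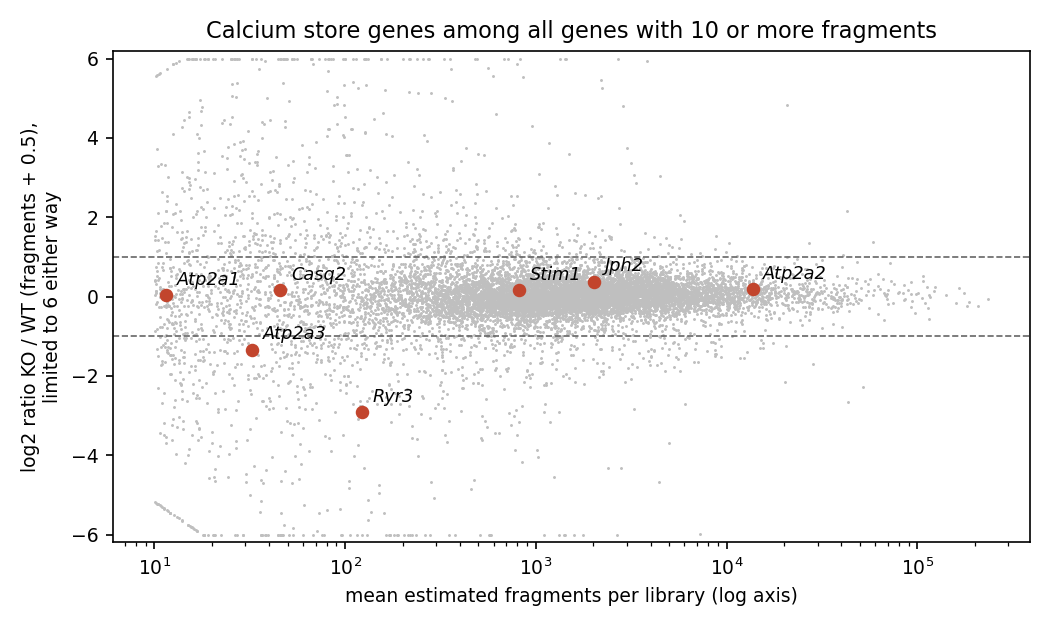
Log2 ratio of the KO-labelled library to WT, from estimated fragments with 0.5 added, against the mean number of estimated fragments per library (log axis), for 11584 genes that averaged 10 fragments or more (gray), 1 library per line. Dashed lines mark 2-fold, ratios beyond 6 are drawn at 6, and the 7 labelled store genes include Ryr3 at -2.92 and Atp2a3 at -1.34, while the other 5 lie between the lines.

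Cacna1s, the pore-forming subunit of the skeletal muscle voltage sensor, was listed at 0 in both libraries. A count of 0 has an exact Poisson upper limit of 3.69 fragments per library, for a transcript of 6345 bases. Jph2, which ties the store to the plasma membrane in heart and skeletal muscle, was above 1 FPKM in both. Jph2 was 15.9 FPKM in WT and 20.6 FPKM in the KO-labelled library (log2 fold change 0.36). The ratio of WT to KO was 0.771 with a counting interval of 0.724 to 0.820. The gene lies at 163336242 to 163398049 of chromosome 2, and its 40 neighboring genes had a median of -0.097, and after subtraction of that median the value of Jph2 was 0.45. Jph2 held 80.0% of the junctophilin sum in WT and 79.2% in the KO-labelled library, and nearly all of the rest was Jph1, at 3.96 and 5.41 FPKM. The 3 genes whose values in the 2 libraries were nearest to those of Jph2 were Sorbs3, Sumf1 and Klhl7, at distances of 0.010, 0.013 and 0.024 on the log2 scale, a likeness that rests on 2 libraries.

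Stim1, the calcium sensor of the store membrane, was 6.65 FPKM in WT and 7.42 FPKM with the KO label. Its gene lies at 102261514 to 102437319 of chromosome 7. The log2 fold change was 0.14 and its ratio 1.12 with a counting interval of 1.01 to 1.23. The related sensor Stim2 was the more abundant of the pair, at 16.9 and 18.9 FPKM. Stim1 accounted for 28.3% of their sum in WT and 28.2% in the KO-labelled library, so that the balance of the pair was nearly the same in both.

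**Figure D4:**
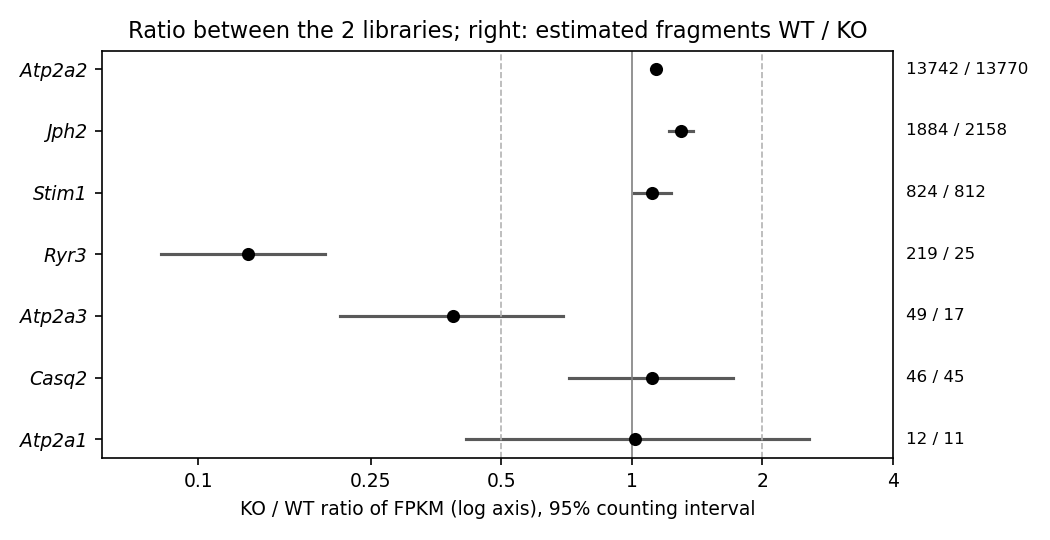
Ratio of FPKM in the KO-labelled library to WT (dots, log axis) with the 95% counting interval (lines) for the 7 genes averaging 10 estimated fragments or more, whose fragments in each library are printed at the right; 1 library per line, so the intervals hold no biological spread. The interval of Ryr3, 0.0819 to 0.196, lies wholly below 0.5, whereas that of Atp2a3 reaches 0.694 and those of Casq2 and Atp2a1 span 1.

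Of 10542 genes that averaged 1 FPKM or more, 2.84% were over 2-fold higher with the KO label and 3.43% over 2-fold lower, 6.27% in either direction. Of the 3 store genes past this filter, 0 passed 2-fold in either direction. Their median log2 fold change was 0.18, against 0.0061 for all genes, whose interquartile range ran from -0.21 to 0.23. Stim1 and Atp2a2 lay inside that range and Jph2 above it. The filter removes the 7 low genes, including Ryr3. When genes were instead required to have a mean of at least 10 estimated fragments, 7 store genes could be read, of which 0 were higher and 2, Ryr3 and Atp2a3, were more than 2-fold lower. The background was then 6.65% higher, 7.18% lower and 13.8% either way among 11584 genes. Among the 1278 genes with as many fragments but under 1 FPKM it was 27.8% in each direction and 55.6% in either. Of the 4 store genes of that kind, Ryr3 and Atp2a3 were lower and Casq2 and Atp2a1 did not pass 2-fold.

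Other genes of calcium handling were taken from 9 lists, which matched 80 genes in the files, 58 of them past the filter of 1 FPKM. Of the 58, 32 had a higher value and 26 a lower value in the KO-labelled library, with a median log2 fold change of 0.047. None passed 2-fold upward. Downward 4 did, or 6.90%, beside 3.43% over all genes. The 4 were Cacng1, Pvalb, Mcub and Rcan2. On estimated fragments, with a mean of at least 10, 65 genes of the lists could be read, of which 11 were more than 2-fold lower and 3 higher. Over all genes read that way the shares were 7.18% and 6.65%. All 3 higher genes, and Jsrp1, Mrln and Trdn among the lower, averaged under 1 FPKM. Over all genes of that kind the share was 27.8% in each direction. The SERCA inhibitors Pln and Sln were listed at 0 in both libraries. Mrln, of the same list of SERCA regulators and named after its values were seen, was not. Mrln was 1.25 FPKM in WT and 0.565 FPKM in the KO-labelled library, on about 16.7 and 6.63 fragments. The counting interval of its ratio, 0.164 to 1.18, spanned 1.

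**Figure D5:**
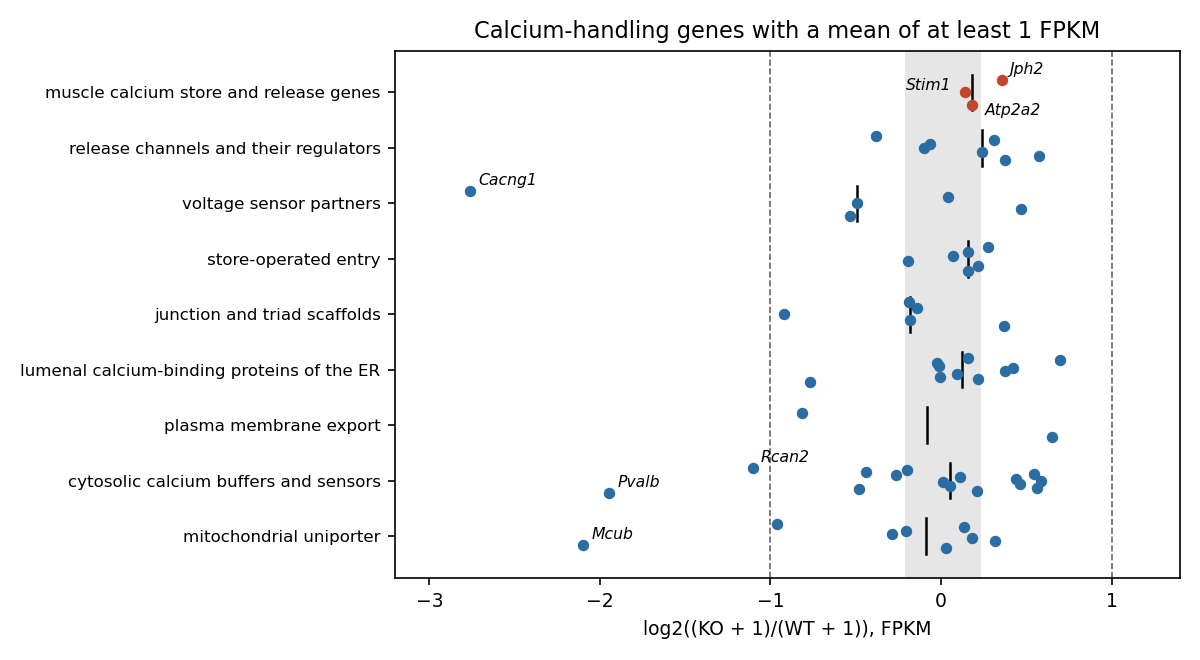
Log2((KO + 1)/(WT + 1)) of FPKM for each gene averaging 1 FPKM or more in the store list (red) and the other calcium-handling lists (blue), 1 library per line; black ticks are list medians, the gray band is the interquartile range of all genes and dashed lines mark 2-fold. Cacng1 at -2.76, Mcub at -2.10, Pvalb at -1.94 and Rcan2 at -1.11 lie beyond the lower line and no gene lies beyond the upper one.

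Release channels of the inositol trisphosphate type far outweighed the ryanodine receptors. Itpr1, Itpr2 and Itpr3 encode the IP3 receptors, which release calcium from the reticulum of most cells. Itpr3 was the highest, at 21.8 FPKM in WT and 25.9 FPKM in the KO-labelled library. Itpr1 was 4.49 and 6.12 FPKM, and Itpr2 was 2.55 and 4.28 FPKM. Their sum was 55.9 times that of the ryanodine receptors in WT and 472 times in the KO-labelled library. Fkbp1a, the immunophilin that binds release channels, was 286 and 267 FPKM. Asph, the locus of junctin and of an aspartyl hydroxylase, was 21.0 and 26.3 FPKM, values that do not tell its products apart. Trdn, which encodes triadin, an anchor of calsequestrin at the release channel, was 0.383 FPKM in WT and 0.161 FPKM in the KO-labelled library, a counting interval of the ratio of 0.289 to 0.597. Jsrp1, of the list of release channels and their regulators, is named after its values were seen. Jsrp1 was 1.34 FPKM in WT and 0.312 FPKM in the KO-labelled library, a ratio of 0.233 with a counting interval of 0.137 to 0.381.

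Among the partners of the voltage sensor, Cacng1 stood apart. Cacng1 encodes the gamma subunit of the skeletal muscle calcium channel. Cacng1 was 37.6 FPKM in WT and 4.68 FPKM in the KO-labelled library (log2 fold change -2.76), on about 1385 and 152 fragments. The median of its neighbors was 0.0019. The pore-forming Cacna1s, by comparison, was listed at 0. Cacna2d1, the alpha-2-delta subunit, was 19.1 and 19.7 FPKM. The beta subunits did not move one way. Cacnb3 was 46.5 and 32.7 FPKM and Cacnb1 1.41 and 0.664 FPKM, whereas Cacnb2, named after its values were seen, was 0.763 and 1.44 FPKM, a ratio of 1.88 with a counting interval of 1.49 to 2.41. The neighbors of Cacnb3 had a median of -0.40, close to its own -0.49. Stac3, an adaptor of the voltage sensor, was 0.521 FPKM in WT and 1.22 FPKM in the KO-labelled library. Cacna1c, the cardiac pore subunit, was listed at 0 in WT and at 0.606 FPKM in the KO-labelled library and is named after its values were seen.

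Among the genes of store-operated entry, the Orai channels differed little and Trpc1 differed widely. Orai1, the pore opened by Stim1, was 11.9 FPKM in WT and 14.0 FPKM in the KO-labelled library. Orai2 was 16.5 and 14.3 FPKM and Orai3 was 11.2 and 11.8 FPKM. Of 6 genes of this list past the filter, 5 were higher and 1 lower, beside 50.7% higher over all genes past it. Their median log2 fold change was 0.16, and 0 passed 2-fold in either direction. Trpc1, a cation channel of the same list that is named after its values were seen, had a mean below the filter. Trpc1 was 0.139 FPKM in WT and 1.71 FPKM in the KO-labelled library, 12.3-fold higher with a counting interval of 7.40 to 20.7, on about 17.7 and 191 fragments.

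Of the potassium channels that balance charge in the store membrane, Tmem38a was 6.18 and 5.34 FPKM and Tmem38b was 7.33 FPKM in WT and 3.41 FPKM in the KO-labelled library. The log2 fold change of Tmem38b, -0.92, fell short of 2-fold with 1 added. Without it the ratio was 0.465, or 2.15-fold lower, with a counting interval of the ratio of 0.399 to 0.540. The lumenal proteins Calr and Hspa5, chaperones of the reticulum of which calreticulin is a major calcium buffer outside muscle, were far above the calsequestrins. Calr was 837 FPKM in WT and 492 FPKM in the KO-labelled library (log2 fold change -0.77), while its neighboring genes on the chromosome had a median of -1.59. Hspa5 was 367 and 361 FPKM.

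Calcium leaves the cell through the Atp2b pumps and Slc8 exchangers. Atp2b1, the common plasma membrane pump, was 43.5 FPKM in WT and 68.8 FPKM in the KO-labelled library (log2 fold change 0.65) beside a neighbor median of 0.37. Atp2b4 was 1.96 and 0.685 FPKM, and the exchanger Slc8a1 was 0.289 and 0.398 FPKM. Among cytosolic proteins, Pvalb, the calcium buffer of fast fibers, was 4.69 FPKM in WT and 0.479 FPKM in the KO-labelled library. Rcan2, a regulator of the calcium-dependent phosphatase calcineurin, was 1.89 and 0.344 FPKM. In mitochondria, the uniporter pore Mcu was 22.3 and 22.8 FPKM, whereas Mcub, a related subunit that lowers uniporter flow, was 43.1 and 9.28 FPKM (log2 fold change -2.10). Slc8b1, of the same list and named after its values were seen, was 12.2 and 5.77 FPKM (log2 fold change -0.96). Its ratio without the added 1 was 0.473 with a counting interval of 0.421 to 0.531.

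Markers of cell state were read in the same libraries. Of 15 markers of differentiated skeletal muscle, 12 were below a mean of 1 FPKM. Their summed level was 6.01 FPKM in WT and 6.26 FPKM in the KO-labelled library. Myog was 0.068 and 0.027 FPKM, Ckm 0.029 and 0.016 FPKM, Myh3 0.009 and 0 FPKM, and Acta1 1.84 and 3.93 FPKM. The near-equal sums hold opposite moves. Actn3, Mylpf and Mymk are named after their values were seen. Actn3 was 2.11 FPKM in WT and 0.935 FPKM in the KO-labelled library, a ratio of 0.442 with a counting interval of 0.337 to 0.575. Mylpf was 0.844 and 1.16 FPKM, and Mymk was 0.604 FPKM in WT and listed at 0 in the KO-labelled library. The 8 myoblast markers summed to 261 FPKM in WT and 67.1 FPKM in the KO-labelled library, where Myod1 went from 60.0 to a listed 0, Des from 97.6 to 3.84, Cdh15 from 16.6 to 0.701 and Chrna1 from 15.3 to 0.917 FPKM. Itga7 was 47.4 and 28.4, Ncam1 14.7 and 13.0, and Myf5 9.14 and 20.3 FPKM, and Pax7 was listed at 0 in both. Of 11 slow and cardiac muscle markers, 9 were below the filter and Tnnt2, at 25.4 and 26.4 FPKM, made up most of the sums of 32.9 and 29.6 FPKM. The other marker past the filter, Tnnc1, named after its values were seen, was 6.66 FPKM in WT and 2.74 FPKM in the KO-labelled library (log2 fold change -1.03), with a counting interval of the ratio of 0.292 to 0.579. The 6 smooth muscle markers summed to 257 FPKM in WT and 626 FPKM in the KO-labelled library, mostly Acta2 at 213 and 544 FPKM. Tagln was 20.3 and 54.5 FPKM and Smtn 23.7 and 26.5 FPKM. Lmod1, Cnn1 and Myh11 had means below the filter and are named after their values were seen. Lmod1 was 0.086 and 1.49 FPKM, Cnn1 0.043 and 0.157 FPKM, and the defining Myh11 0.009 and 0.02 FPKM. The 6 fibroblast markers summed to 258 and 907 FPKM, mostly Col1a2 at 237 and 621 and Col1a1 at 9.66 and 273 FPKM, with Pdgfra at 10.8 and 12.3 FPKM and with Thy1 and Lum listed at 0. Of the 5 neuronal markers, Tubb3 was 18.0 and 0.997 FPKM and the other 4 were under 0.5 FPKM. The 4 endothelial markers summed to 0.01 and 0.028 FPKM, and of 4 immune markers Ptprc, Adgre1 and Cd3e were listed at 0 and Cd68 was 2.85 and 1.06 FPKM. The part of these differences in the values of Ryr3, Cacng1 and Pvalb was not tested.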

How the data were processed

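Gene expression was measured by RNA sequencing in 2 C2C12 libraries, 1 WT and 1 Gne KO. The members and lists were chosen with earlier results of these data known. The authors deposited 1 value per gene symbol without naming its unit, taken here as FPKM. Low values fall on steps that follow transcript length, as those of TPM would too, so that TPM is not excluded. Column totals were 568410 and 574144, and read totals are unknown. The submitters' processing notes name Trim Galore 0.6.6, STAR 2.7.9a, RSEM 1.3.3 and GRCm38, whereas the methods name an earlier STAR version and GRCm39.

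Repeated symbols (24) were reduced to the higher row. Fold changes were log2((KO + 1)/(WT + 1)), counted at a mean of 1 FPKM or more. No p-value was computed. Fragments were value times canonical transcript length (GENCODE vM39) over the value of 1 fragment. The step was sought in 75 low genes in WT and 78 in KO, and its value is the median of the 21 and 30 nearest to 1 fragment. The periodicity score was 0.40 and 0.42, where 1 would put every value on a step. A shorter transcript would lower the fragments of both libraries alike and leave ratios as they are, but it would widen their intervals. Ratio intervals are exact conditional binomial. Positions, neighbors and promoters are RefSeq, GRCm38.p6. Ryr1, Atp2a1, Casq1, Stim1 and Jph2 overlap other annotated genes and are less certain. Strit1 was matched as Gm34302, and Arln and Erln had no match.

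Named genes were all members, calcium genes past the filter and beyond 2-fold, a set of calcium genes whatever their values, marker genes at 10 FPKM or more with defining muscle markers, and 3 genes nearest to the expressed member that changed most. Scripts were tested on simulated data. They ran in Python 3.11.15 with pandas 2.3.3 and, for intervals, scipy 1.17.1.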

Additional observations from a re-analysis of the deposited data

How the results depend on the processing

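No paired analysis was possible because each group holds 1 library and the result comes from no test. Leaving out a replicate was likewise not possible, and normalizations that need counts were left out, as the values are FPKM. For Atp2a2, Jph2 and Stim1, 0 passed 2-fold with pseudocounts of 0.1 and 5, other scalings, a filter of 5 FPKM or the neighbors' median subtracted. These settings did not count the 7 low genes, and without a filter the added 1 keeps values this low from reaching 2-fold, so the 0 says nothing about them. On estimated fragments, an alternative chosen after seeing the data, 2 store genes (Ryr3 and Atp2a3) were over 2-fold lower, 3 of 65 other calcium genes were higher and 11 lower, and 770 of 11584 genes were higher and 832 lower. The 4 lower of 58 calcium genes numbered 7 of 58 at a pseudocount of 0.1 and 2 of 58 at a pseudocount of 5. When 5 FPKM was required, 2 of 46 were lower. With no filter 1 of 80 was higher, Trpc1 of the store-operated entry list, beside 334 of 21829 over all genes. Over all 10542 genes past the filter, 299 higher and 362 lower turned into 410 and 471 at a pseudocount of 0.1. They became 102 and 176 at a pseudocount of 5, and 145 and 221 among the 8572 genes averaging 5 FPKM. Of 98 values of single members and list medians, 93 moved by less than the interquartile range of all genes, 0.44. The other 5 were Ryr3, Atp2a3 and Casq1 at a pseudocount of 0.1 (-1.87, -0.96 and -0.55), the voltage sensor partners' median with no filter (0.0072) and the plasma membrane export median when 5 FPKM was required (0.65, 1 gene). With 5 added or the libraries rescaled, the values of the 7 low genes could hardly move by 0.44. Their share of the 93 under those settings therefore says nothing about how firm they are.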
